A study of Homo sapiens with 6 samples.

Results

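The lysyl oxidases are a family of 5 genes, LOX, LOXL1, LOXL2, LOXL3 and LOXL4, taken by name. Of these, 4 have a row among the 19009 gene symbols of the count table and all 4 were tested, while LOXL4 was not analysed here. The cells are RCC10, an established human line of clear cell renal carcinoma, a tumour type in which the VHL tumour suppressor is commonly lost. The double-knockout cells (labelled DKO) carried guide RNAs against HIF-1alpha and HIF-2alpha, delivered by lentivirus and followed by puromycin selection. The VHL-restored cells (labelled VHL) were given VHL by lentivirus, and the labels name no selection for them. The parental cells (labelled WT and Control) received neither, and no empty vector or control guide is among the groups. All cells were grown in DMEM with 10% FBS, and each of the 3 groups has 2 libraries of poly(A) messenger RNA. The labels do not say whether the engineered cells were a clone or a pool, nor whether the 2 libraries of a group came from separate cultures. The p-values therefore rest on a spread between libraries that may be purely technical.

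Lysyl oxidases are secreted, copper-dependent amine oxidases. They convert lysine and hydroxylysine side chains of collagen and elastin to reactive aldehydes, which then form the cross-links that make matrix stiff and insoluble. LOX and LOXL1 are made with a propeptide that is cut off outside the cell, whereas LOXL2, LOXL3 and LOXL4 carry scavenger receptor cysteine-rich domains in its place. LOX and LOXL2 are known as hypoxia-inducible genes in many tumour cells. HIF is a pair of an oxygen-regulated alpha subunit and ARNT, and VHL is the part of a ubiquitin ligase that recognises the alpha subunit for degradation. HIF binds DNA at a short core, ACGTG or GCGTG.

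The promoters of LOX and LOXL1 are printed because they differ in how many matches to that core they hold; the pair was chosen with its expression known. They are the 250 bases before a RefSeq transcript start in GRCh38.p14, written 5′ to 3′ on the gene's own strand, with each match to the core on either strand in capitals.
LOX, chr5:122078260-122078509, minus strand: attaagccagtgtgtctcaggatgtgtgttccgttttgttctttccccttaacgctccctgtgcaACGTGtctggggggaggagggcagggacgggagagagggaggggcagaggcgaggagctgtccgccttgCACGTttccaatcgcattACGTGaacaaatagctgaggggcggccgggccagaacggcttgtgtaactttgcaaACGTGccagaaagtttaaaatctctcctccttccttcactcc
LOXL1, chr15:73926212-73926461, plus strand: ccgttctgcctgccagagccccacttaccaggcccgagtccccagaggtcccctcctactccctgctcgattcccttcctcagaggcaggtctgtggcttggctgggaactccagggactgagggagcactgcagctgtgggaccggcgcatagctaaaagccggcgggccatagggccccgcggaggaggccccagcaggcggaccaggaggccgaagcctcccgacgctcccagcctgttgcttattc
The LOX window held 4 matches, all to ACGTG, at 185, 116, 98 and 42 bases before the start, the one at 116 on the opposite strand. The other 2 starts listed for LOX had 2 matches each in their windows, 1 to ACGTG and 1 to GCGTG, but these windows overlap and hold the same 2 sites. The LOXL1 and LOXL4 windows held 0 matches. Of the starts listed for LOXL3, 1 had 0 matches and the other had 1, to GCGTG. Among 35114 promoter windows of the same length, 43.2% held at least 1 match to either core on either strand, and 3.22% held at least 4. ACGTG was present in 18.5% of windows and GCGTG in 32.2%. A match is a description of letters and not a binding site, and the table has no entry for LOXL2.

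LOX, the founding member of the family, had the largest fold differences from parental cells of the 4 genes. Its level was 66.6 and 71.2 CPM (counts scaled to the library size after TMM normalization) in double-knockout cells, 42.5 and 40.2 CPM in VHL-restored cells and 346.6 and 357.5 CPM in parental cells. No 2 groups overlapped, and the parental libraries stood far above the others. LOX fell in double-knockout cells by 2.35 ± 0.06 on the log2 scale (SE, n = 2 libraries each), a 5.106-fold difference from parental cells (edgeR quasi-likelihood test, Benjamini-Hochberg adjusted p = 2.85e-24). In VHL-restored cells it fell by 3.09 ± 0.06 relative to parental cells, or 8.517-fold (adjusted p = 9.91e-27, same test). Double-knockout cells had more LOX messenger RNA than VHL-restored cells, by 0.74 ± 0.07 on the log2 scale (adjusted p = 5.31e-11, edgeR).

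LOXL2, which cross-links collagen IV of basement membranes and is also known in the nucleus, was the most abundant member in every library. It had 381.7 and 377.7 CPM in double-knockout cells, 201.9 and 195.7 CPM in VHL-restored cells and 866.7 and 839.2 CPM in parental cells. The groups did not overlap and stood in the same order as for LOX, but closer together. LOXL2 fell in double-knockout cells by 1.17 ± 0.05 on the log2 scale relative to parental cells (2.246-fold, edgeR adjusted p = 4.29e-18). It fell in VHL-restored cells by 2.10 ± 0.05 (4.291-fold, edgeR adjusted p = 2.34e-24). Between the engineered lines LOXL2 was 1.91-fold higher in double-knockout cells (log2 fold change 0.93 ± 0.05, edgeR adjusted p = 1.97e-15).

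LOXL1, the member most closely tied to elastic fibres, was expressed at a low level and differed in opposite directions in the engineered lines. It had 8.96 and 8.51 CPM in double-knockout cells, 4.29 and 4.36 CPM in VHL-restored cells and 6.34 and 7.54 CPM in parental cells. VHL-restored libraries were the lowest and double-knockout libraries the highest, with the parental ones between them and the farthest apart from each other. LOXL1 fell in VHL-restored cells by 0.67 ± 0.14 on the log2 scale relative to parental cells (1.604-fold, edgeR adjusted p = 7.65e-05). In double-knockout cells it was higher than in parental cells by 0.34 ± 0.12 (1.259-fold, edgeR adjusted p = 0.0155). That call was lost without parental replicate 1 (0.21, adjusted p = 0.233), without double-knockout replicate 1 (0.31, adjusted p = 0.110) and in DESeq2 (0.34, adjusted p = 0.135). The difference between the engineered lines was 2.019-fold, with a log2 fold change of 1.01 ± 0.13 in double-knockout relative to VHL-restored cells (edgeR adjusted p = 4.12e-08).

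LOXL1-AS1, a non-coding RNA read from the opposite strand, shares 232 exon bases with LOXL1 in GENCODE 29, or 9.87% of the LOXL1 exon length. It had 1.64 and 1.86 CPM in double-knockout cells, 5.01 and 5.36 CPM in VHL-restored cells and 2.19 and 2.65 CPM in parental cells. Its order was the reverse of that of LOXL1, with VHL-restored libraries on top. LOXL1-AS1 rose in VHL-restored cells by 1.11 ± 0.17 on the log2 scale relative to parental cells (edgeR adjusted p = 5.07e-07). In double-knockout cells its log2 fold change of -0.45 ± 0.20 against parental cells did not pass (edgeR adjusted p = 0.055). Nothing states whether reads were counted by strand, so reads from the shared bases cannot be told apart.

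LOXL3, known from mouse for its part in the palate, the spine and muscle attachment, had few counts. It had 34 and 19 counts in double-knockout libraries, 18 and 29 in VHL-restored libraries and 18 and 13 in parental libraries. In CPM these were 1.16 and 0.738 in double-knockout, 0.644 and 1.04 in VHL-restored and 0.607 and 0.573 in parental cells. The engineered lines overlapped each other, and both lay above the parental libraries, but none of these differences passed the test. The log2 fold change was 0.70 ± 0.37 in double-knockout against parental cells (edgeR adjusted p = 0.105) and 0.50 ± 0.37 in VHL-restored against parental cells (adjusted p = 0.271). Between double-knockout and VHL-restored cells it was 0.19 ± 0.33 (edgeR adjusted p = 0.645). LOXL3 shares 625 exon bases, 15.2% of its exon length, with HTRA2 on the opposite strand, which averaged 13.5 CPM in double-knockout, 16.3 CPM in VHL-restored and 22.03 CPM in parental cells. HTRA2 was lower in both engineered lines than in parental cells, by log2 fold changes of -0.70 and -0.44 (edgeR adjusted p = 3.69e-07 and 0.000261). Whether reads of HTRA2 entered the LOXL3 counts was not tested. With so few counts, the LOXL3 values are uncertain in any case.

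**Figure D1:**
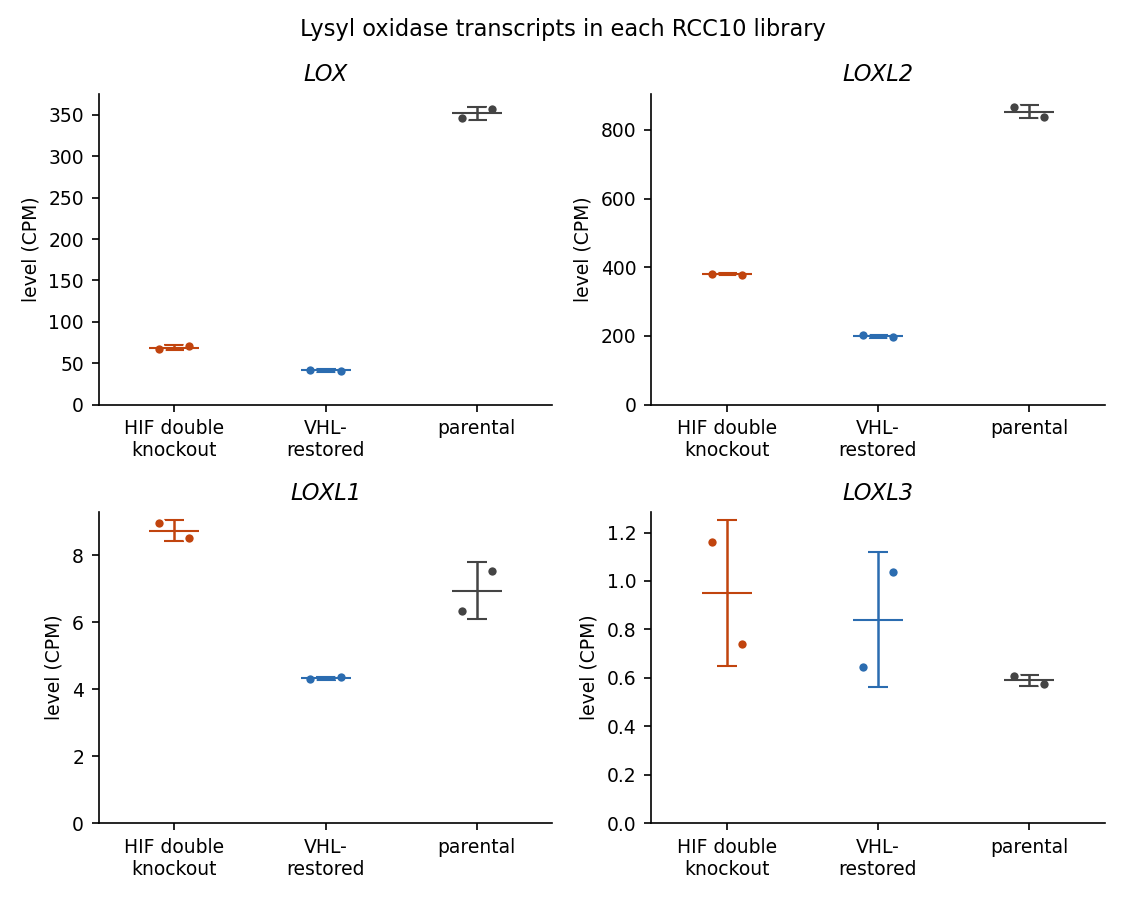
Level of LOX, LOXL2, LOXL1 and LOXL3 in CPM in double-knockout, VHL-restored and parental cells, 1 panel per gene with its own axis from 0. Points are libraries, horizontal lines are means and bars are SD of 2 libraries. Parental libraries are highest for LOX and LOXL2, double-knockout libraries for LOXL1.

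Set against the whole table, 3 of the 4 genes were called at an adjusted p of 0.05 in double-knockout against parental cells, 2 lower and 1 higher, where 54.1% of the 18273 genes tested passed, 27.5% lower and 26.6% higher. In VHL-restored against parental cells 3 of 4 passed, all lower, with 54.2% of genes passing, 27.7% lower and 26.5% higher. In double-knockout against VHL-restored cells 3 of 4 passed, all higher, with 56.0% passing and 28.0% higher. With most genes called in each comparison, 3 calls among 4 genes say little about the family as a whole. The first 2 comparisons share the parental libraries. The median log2 fold change of all genes tested was 0 in each comparison.

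**Figure D2:**
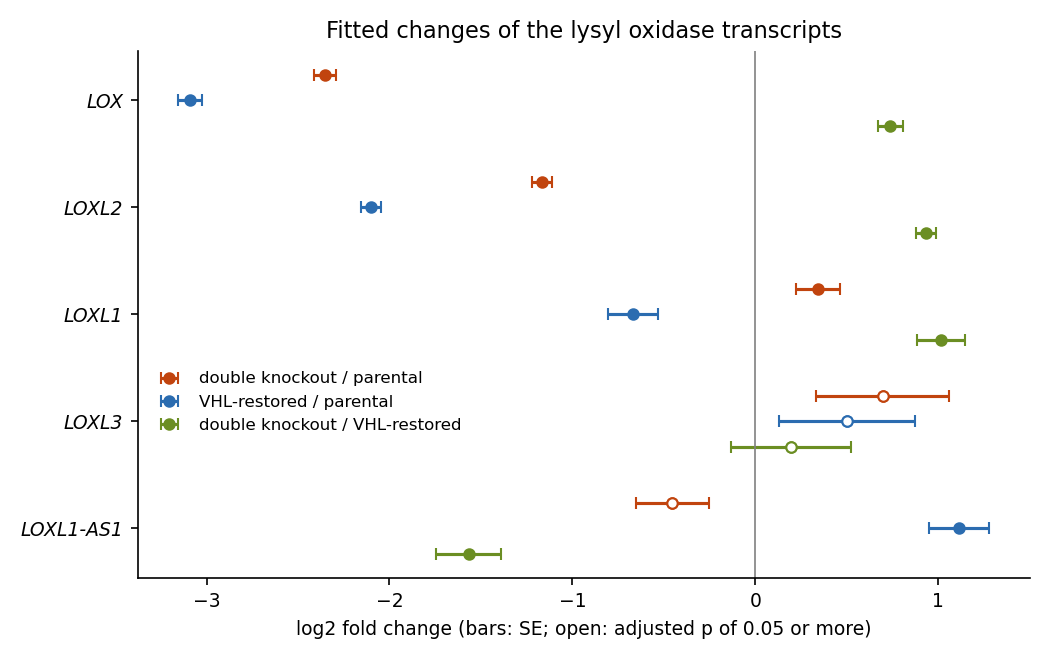
Log2 fold changes of the lysyl oxidase transcripts in 3 comparisons, with the standard error of the edgeR fit as bars and open symbols where the adjusted p was 0.05 or more. LOX and LOXL2 lie left of 0 in both engineered lines, further left in VHL-restored cells, and LOXL1 and LOXL1-AS1 change sides between the lines.

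Per kilobase of exon, LOXL2 led the family in all 6 libraries and LOX came second. LOXL2 stood at 107.6 and 106.4 CPM per kilobase in double-knockout cells, 56.88 and 55.14 in VHL-restored cells and 244.2 and 236.5 in parental cells. LOX stood at 12.86 and 13.75 CPM per kilobase in double-knockout cells, 8.195 and 7.759 in VHL-restored cells and 66.89 and 69 in parental cells. LOXL1 followed, between 3.618 and 3.81 CPM per kilobase in double-knockout, 1.826 and 1.854 in VHL-restored and 2.695 and 3.208 in parental cells. LOXL3 was last, under 0.2822 CPM per kilobase in every library but double-knockout replicate 1, which had that value. The order of the 4 genes was thus the same in all 6 libraries, with no overlap between neighbours within a library group.

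The make-up of the family differed along with its total. Summed over the 4 genes, the level was 458.5 and 458.2 CPM in double-knockout cells, 249.2 and 241.3 CPM in VHL-restored cells and 1220 and 1205 CPM in parental cells. For each LOX count there were 5.729 and 5.302 LOXL2 counts in double-knockout libraries, 4.754 and 4.868 in VHL-restored libraries and 2.501 and 2.347 in parental libraries, a ratio that does not depend on library scaling. Both engineered lines lay above parental cells in this ratio, with no overlap. LOX made up 14.53% (95% exact binomial interval 13.94 to 15.14) and 15.55% (14.9 to 16.22) of the family's counts in double-knockout cells. Its share was 17.04% (16.16 to 17.94) and 16.66% (15.78 to 17.57) in VHL-restored cells, and 28.4% (27.94 to 28.87) and 29.67% (29.13 to 30.22) in parental cells. LOXL1 took 1.954% and 1.857% of the family's counts in double-knockout, 1.722% and 1.807% in VHL-restored and 0.5192% and 0.626% in parental cells. The larger share in VHL-restored cells is not a gain of LOXL1, which averaged 4.33 CPM there against 6.94 CPM in parental cells. The family's total was lower there by a larger factor. The binomial intervals cover counting error only. With 2 libraries a group, an exact permutation test of the ratio cannot go below p = 0.333.

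**Figure D3:**
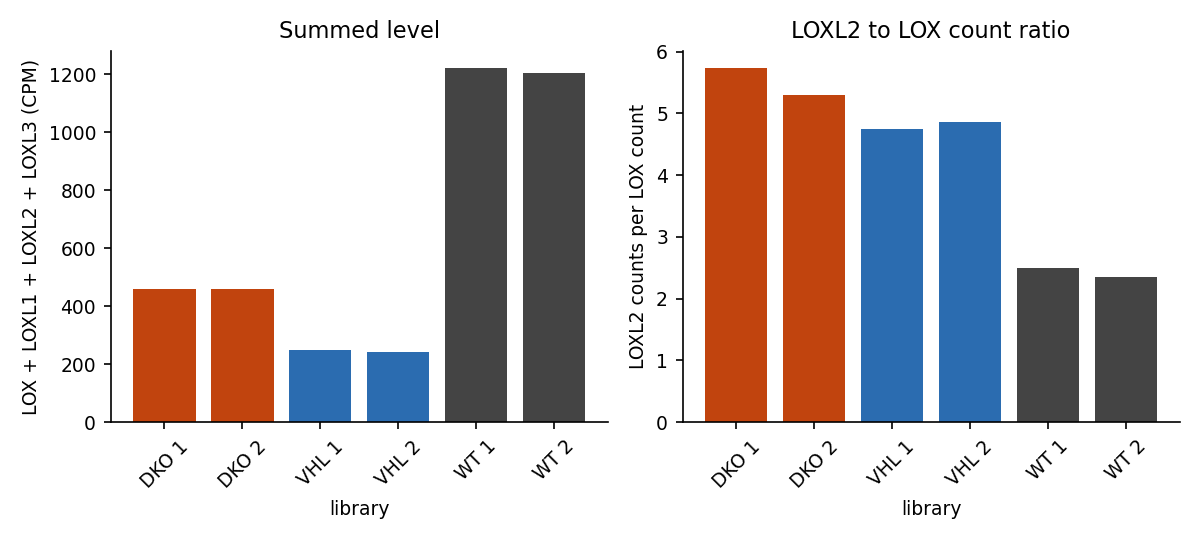
Summed level of LOX, LOXL1, LOXL2 and LOXL3 in CPM (left) and LOXL2 counts per LOX count (right), 1 bar per library. The parental libraries (WT) have the highest sums, 1220 and 1205 CPM, and the lowest ratios, 2.501 and 2.347.

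Enzymes that act on collagen before lysyl oxidases do include the lysyl hydroxylases (PLOD genes), which make the hydroxylysine used in stable cross-links, the prolyl hydroxylases, which stabilise the triple helix, and galactosyltransferases. Of 13 such genes, 6 were lower and 3 higher in double-knockout than in parental cells, beside 27.5% of all genes lower and 26.6% higher. The median log2 fold change was 0.11. That median takes in LEPREL2 and P4HA3, with 2 and 18 counts in double-knockout cells and 1 and 6 in parental cells. Their log2 fold changes of 0.79 and 1.48 did not pass. In VHL-restored cells 8 of the 13 were lower and 0 higher, with a median of -0.68, beside 27.7% of all genes lower and 26.5% higher. Under median centring the counts of higher genes were 5 in double-knockout cells and 1 in VHL-restored cells. PLOD2, the hydroxylase of collagen telopeptides, averaged 78.4 ± 6.83 CPM in double-knockout cells, 163.5 ± 3.20 CPM in VHL-restored cells and 530.2 ± 18.5 CPM in parental cells (SD, n = 2 each). It fell 6.761-fold in double-knockout cells and 3.243-fold in VHL-restored cells relative to parental cells, by log2 2.76 ± 0.06 and 1.70 ± 0.06 (edgeR adjusted p = 1.01e-25 and 8.44e-21). Unlike LOX and LOXL2, PLOD2 was lower in double-knockout than in VHL-restored cells (log2 fold change -1.06 ± 0.06, edgeR adjusted p = 3.51e-15). P4HA1, a prolyl hydroxylase subunit, averaged 73.1 ± 4.22 CPM in double-knockout, 47.9 ± 0.134 CPM in VHL-restored and 254.4 ± 1.18 CPM in parental cells, the same order as LOX. GLT25D2, a galactosyltransferase now named COLGALT2, rose to 16.8 ± 1.56 CPM in double-knockout cells, against 1.95 ± 0.199 CPM in parental cells (edgeR adjusted p = 1.68e-18). In VHL-restored cells it was at 2.02 ± 0.0267 CPM (adjusted p = 0.905, edgeR). PLOD3 fell in VHL-restored cells by 1.35 ± 0.07 on the log2 scale (edgeR adjusted p = 2.6e-17), and its 0.11 ± 0.06 in double-knockout cells did not pass (adjusted p = 0.149).

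**Figure D4:**
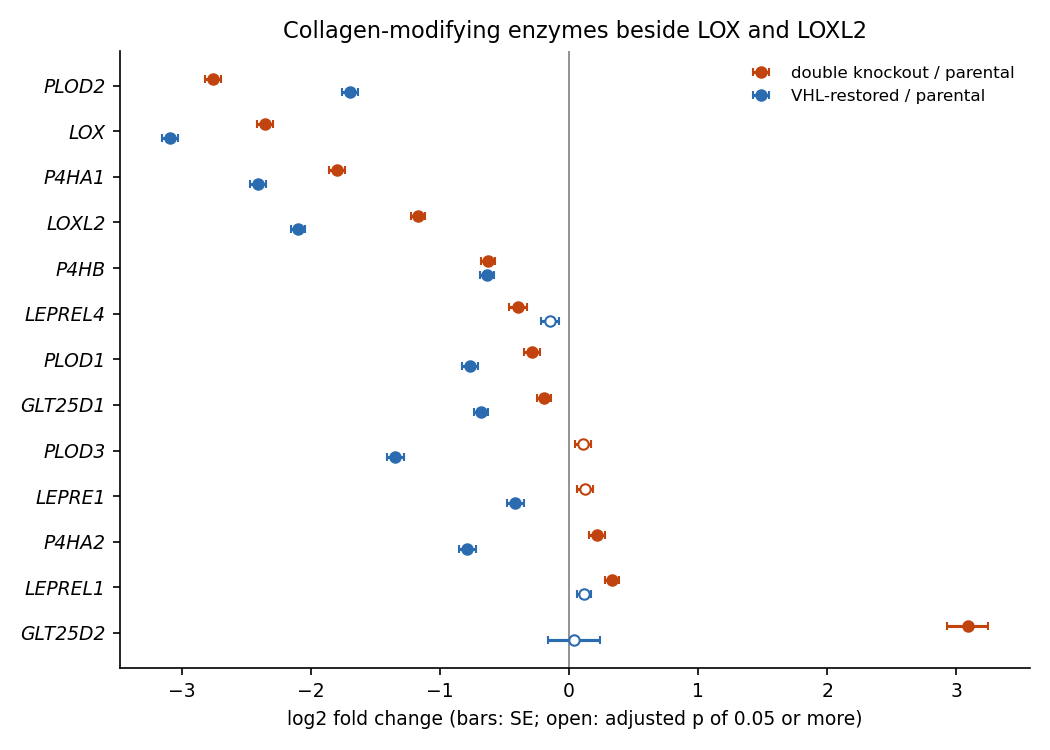
Log2 fold changes against parental cells of LOX, LOXL2 and the collagen hydroxylases and glycosyltransferases with a mean of at least 1 CPM, in double-knockout and VHL-restored cells, with the standard error as bars and open symbols where the adjusted p was 0.05 or more. PLOD2, LOX, P4HA1 and LOXL2 are the leftmost genes in double-knockout cells, and PLOD2 is the one of these that lies further left there than in VHL-restored cells.

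Copper reaches lysyl oxidases in the secretory pathway through the pump ATP7A, which receives it from the carrier ATOX1. Of 10 copper genes tested, 5 were higher and 4 lower in double-knockout than in parental cells. Of all genes, 26.6% were higher and 27.5% lower. The copper genes had a median log2 fold change of 0.30 and a mean of -0.13. In VHL-restored cells 2 were higher and 5 lower, with a median of -0.32, beside 26.5% of all genes higher and 27.7% lower. The lower count was 3 in DESeq2 and without parental replicate 1, and the higher count was 1 without either parental library or VHL-restored replicate 2. ATP7A fell in both lines, to 17.3 ± 1.51 CPM in double-knockout cells and 17.8 ± 2.67 CPM in VHL-restored cells, against 36.8 ± 2.18 CPM in parental cells (edgeR adjusted p = 1.36e-11 and 3.2e-11). ATP7B, a second copper pump, fell to 2.78 ± 0.136 CPM in double-knockout cells and 5.13 ± 0.585 CPM in VHL-restored cells, against 10.5 ± 0.444 CPM in parental cells. ATOX1 rose in double-knockout cells by 1.06 ± 0.08 on the log2 scale (edgeR adjusted p = 1.96e-12), and its -0.06 ± 0.09 in VHL-restored cells did not pass (adjusted p = 0.609).

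The propeptides of LOX and LOXL1, and those of procollagens, are removed by proteases of the BMP1 group with the help of enhancer proteins, and procollagens are also cut by ADAMTS proteases. Of 9 genes of these kinds, including FURIN, which activates such proteases, 2 were higher and 4 lower in double-knockout than in parental cells. In VHL-restored cells 3 were higher and 2 lower. The shares of all genes were 26.6% higher and 27.5% lower in double-knockout cells, and 26.5% and 27.7% in VHL-restored cells. The lower count in VHL-restored cells was 1 in DESeq2 and without parental replicate 2. BMP1 itself averaged 36.5 ± 1.85 CPM in double-knockout, 46.4 ± 0.0321 CPM in VHL-restored and 43.2 ± 2.07 CPM in parental cells. Its fall of 0.24 ± 0.08 in double-knockout cells (edgeR adjusted p = 0.00717) was lost without parental replicate 1 (adjusted p = 0.133) or double-knockout replicate 2 (adjusted p = 0.0724). TLL2, a protease of the same group, rose by 1.11 ± 0.10 in double-knockout cells and 1.24 ± 0.10 in VHL-restored cells on the log2 scale (edgeR adjusted p = 2.15e-11 and 1.96e-12). PCOLCE2, a procollagen protease enhancer, fell to 6 counts in double-knockout cells, against 167 in parental cells. Its mean was 0.112 CPM in double-knockout cells, near the level of 3 counts in a library. In parental cells it was 3.24 CPM, and in VHL-restored cells 2.502 CPM. Among 8 tested genes of matrix partners that bind lysyl oxidases, 1 was higher and 1 lower in double-knockout than in parental cells. In VHL-restored cells 3 were higher and 1 lower. These counts stand beside the same shares of all genes, and both lower calls were lost in some alternatives. FN1, encoding fibronectin, which binds LOX in the matrix, rose by 0.96 ± 0.05 in double-knockout cells and 1.62 ± 0.05 in VHL-restored cells (edgeR adjusted p = 5.23e-18 and 1.11e-23).

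Among the collagens that lysyl oxidases act on, 2 of 10 fibrillar chains tested were higher and 4 lower in double-knockout than in parental cells, with a median log2 fold change of -1.16. In VHL-restored cells 2 were higher and 2 lower, with a median of -0.50, and the lower count was 1 in DESeq2 and without either parental library or VHL-restored replicate 1. Both medians take in chains with almost no counts, such as COL2A1 with 1 count and COL5A3 with 2, all in parental cells. Of all genes tested, 26.6% were higher and 27.5% lower in double-knockout cells, and 26.5% and 27.7% in VHL-restored cells. COL1A1 fell to 1.40 ± 0.0492 CPM in double-knockout cells, against 8.55 ± 0.0765 CPM in parental cells, and stood at 9.17 ± 1.25 CPM in VHL-restored cells. COL5A1 was nearly missing from VHL-restored cells, with 2 counts there against 5236 in parental cells (a ratio of 2798 in favour of parental cells, 95% interval of counting error 774.1 to 23110). In double-knockout cells COL5A1 averaged 56.3 ± 3.05 CPM, against 100.2 ± 1.93 CPM in parental cells. Of the 6 chains of collagen IV, the substrate of LOXL2 in basement membrane, 1 was higher and 2 lower in double-knockout cells. In VHL-restored cells 3 were higher and 3 lower, all against parental cells. These counts stand beside the same shares of all genes. The higher count was 0 in double-knockout cells without either parental library or double-knockout replicate 1, and 1 in VHL-restored cells without either parental library or VHL-restored replicate 1. COL4A3 and COL4A4 fell in both lines. COL4A3 stood at 1.03 ± 0.299 CPM in double-knockout, 5.45 ± 0.477 CPM in VHL-restored and 17.2 ± 0.687 CPM in parental cells. COL4A5 rose to 9.67 ± 1.04 CPM in VHL-restored cells, against 0.418 ± 0.0291 CPM in parental cells (edgeR adjusted p = 3.67e-18). Elastin, the substrate of LOX and LOXL1 in elastic fibres, had a mean of 0.0171 CPM in double-knockout cells and 0 counts in both other groups. Of 14 elastic fibre genes, 6 were higher and 1 lower in double-knockout cells and 7 were higher and 1 lower in VHL-restored cells, beside the shares of all genes given above (26.6% higher and 27.5% lower, and 26.5% higher and 27.7% lower). The lower count in double-knockout cells was 2 without parental replicate 1. FBLN1, encoding the matrix protein fibulin-1, was the lower gene in both lines, with 1.44 ± 0.0525 CPM in double-knockout and 4.49 ± 0.427 CPM in VHL-restored cells, against 28.5 ± 0.492 CPM in parental cells (edgeR adjusted p = 9.49e-23 and 1.2e-19). FBN1, the main microfibril protein, rose to 18.7 ± 0.888 CPM in double-knockout cells and 10.3 ± 0.943 CPM in VHL-restored cells, against 4.48 ± 0.0982 CPM in parental cells.

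Likeness of pattern was measured as the root mean square difference of gene-centred log2(CPM + 0.125) over the 6 libraries, among 12684 genes with a mean of at least 1 CPM. LOX was closest to PFKFB3, a regulator of glycolysis (0.083), FNIP2 (0.086) and VEGFA, the vascular growth factor (0.105). PFKFB3 averaged 65.6 ± 4.54 CPM in double-knockout, 39.4 ± 0.811 CPM in VHL-restored and 341.3 ± 17.6 CPM in parental cells, levels near those of LOX itself. Genes close to LOXL2 included the bicarbonate transporter SLC4A4 (0.071) and the cholesterol exporter ABCA1 (0.088). SLC4A4 averaged 23.7 ± 0.461 CPM in double-knockout, 11.9 ± 1.25 CPM in VHL-restored and 50.8 ± 2.25 CPM in parental cells. LOXL1 was closest to GET4, part of the machinery that inserts tail-anchored membrane proteins (0.050), which averaged 94.4 ± 3.64 CPM in double-knockout, 48.6 ± 0.219 CPM in VHL-restored and 75.1 ± 3.15 CPM in parental cells. For LOXL3 the nearest gene, THAP7, was at 0.131, with few LOXL3 counts behind the value. The libraries within a group share their line, so likeness over 6 libraries rests on 3 group levels.

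**Figure D5:**
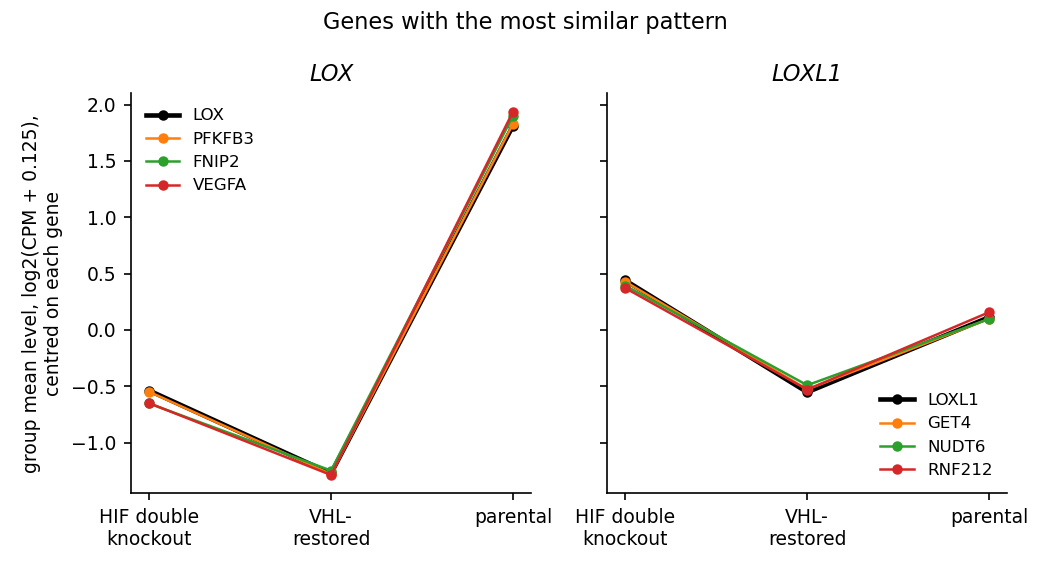
Group mean level as log2(CPM + 0.125), centred on each gene, of LOX and LOXL1 (black) with the 3 genes closest to each, in double-knockout, VHL-restored and parental cells. VHL-restored cells are lowest in both panels, parental cells are highest for LOX and double-knockout cells are highest for LOXL1.

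The labels were checked on the targeted genes and on cell markers. EPAS1, the gene of HIF-2alpha, had 44.4 and 48.0 CPM in double-knockout, 362.7 and 369.4 CPM in VHL-restored and 352.1 and 348.9 CPM in parental cells. HIF1A had 29.6 and 31.6 CPM in double-knockout, 304.1 and 286.2 CPM in VHL-restored and 69.5 and 72.9 CPM in parental cells. VHL had 651.6 and 722.7 CPM in VHL-restored cells, against 38.8 and 39.5 CPM in parental cells. Of 10 renal markers, 5 were higher and 3 lower in double-knockout than in parental cells, and 3 were higher and 4 lower in VHL-restored cells. Of all genes, 26.6% were higher and 27.5% lower in double-knockout cells, and 26.5% and 27.7% in VHL-restored cells. CDH16, a kidney cadherin, averaged 1.73 ± 0.130 CPM in double-knockout, 22.1 ± 1.45 CPM in VHL-restored and 30.3 ± 2.27 CPM in parental cells. PAX2, a renal transcription factor, averaged 15.4 ± 0.726 CPM in double-knockout, 1.11 ± 0.353 CPM in VHL-restored and 1.67 ± 0.261 CPM in parental cells. CUBN, a proximal tubule receptor, averaged 0.492 ± 0.0186 CPM in double-knockout, 0.787 ± 0.253 CPM in VHL-restored and 6.35 ± 0.310 CPM in parental cells. The renal markers thus differed between the lines in both directions. The renal factor PAX8 averaged 363.3 CPM in double-knockout, 407.3 CPM in VHL-restored and 300.6 CPM in parental cells, and LRP2, a marker of the proximal tubule, was at or near 0 in all groups. Since fibroblasts are a rich source of LOX in tissue, their markers were read too. COL3A1 had no count in any library, and the summed fibroblast markers lay between 30.06 and 30.50 CPM in double-knockout, 42.38 and 43.03 CPM in VHL-restored and 43.44 and 44.14 CPM in parental cells. In that list 1 of 8 genes tested was higher and 2 were lower in double-knockout than in parental cells, and 2 were higher and 1 lower in VHL-restored cells. Averaged over the 6 libraries, ACTA2 stood at 21.84, PDGFRB at 8.461, COL1A1 at 6.373 and THY1 at 2.076 CPM. PDGFRA, FAP, DCN and DPT stood at 0.0624, 0.0924, 0.0112 and 0.00735 CPM. All libraries are from the RCC10 line in culture, and a part of fibroblasts in the LOX values was not tested. Fewer cells of a type and less RNA per cell cannot be told apart in bulk RNA. Total counts ranged from 22248126 to 29929116 per library, and 3 counts amount to between 0.101 and 0.132 CPM.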

How the data were processed

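The authors deposited 1 table of read counts per gene symbol for the 6 libraries. Its name calls the counts normalized, but all values are whole, small integers are not skipped and totals vary by library; they were taken as raw. The submitters' processing notes list HISAT2 2.2.1, featureCounts 2.0.8, Trimmomatic 0.39, FastQC 0.74 and limma 3.58.1. They name the builds hg19 and hg38, and neither the one behind the counts nor the strand setting is given in the sources used here.

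The 18273 of 19009 genes with a count of 1 or more in any library were fitted with edgeR 4.0.16 in R 4.3.3, using TMM scaling, all 6 libraries, 3 group means and the quasi-likelihood test, with Benjamini-Hochberg adjustment over all genes tested at 0.05. The prior count was 0.125 and the biological coefficient of variation 4.41%. The SE is the Wald error of the fit. The fit was also run on counts simulated from its own estimates, and the outcome is not reported here. Spread between replicates exceeded counting error: chi-square divided by its degrees of freedom was 4.86 for double-knockout, 6.89 for VHL-restored and 2.65 for parental libraries.

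Alternatives were RLE, total-count and median scaling, a low-count filter, DESeq2 1.42.0, the libraries of each pair of groups alone, a replicate block, and leaving out each library. Exon lengths and overlaps came from GENCODE 29, promoters from RefSeq. The family and the gene lists were chosen with earlier results of these data known. Named from a list were up to 4 members with the largest change in double-knockout cells, and any hydroxylase, collagen, processing or copper gene. PAX8, LRP2, SNAI1, elastin and some fibroblast markers were named outside that rule. Among the genes that the likeness measure names for LOXL2, the closest is not reported here.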

Additional observations from a re-analysis of the deposited data

How the results depend on the processing

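Of 156 values of the 4 genes under 13 alternatives, 151 kept their direction and their side of the threshold. LOXL1 in double-knockout against parental cells was no longer called in DESeq2 (0.34, adjusted p = 0.135), and lay between 0.21 and 0.46 when 1 library was left out. LOXL3 between double-knockout and VHL-restored cells, not called in any setting, ranged from -0.19 to 0.58 when 1 library was left out. Its values against parental cells, also not called in any setting, ranged from 0.32 to 0.97 in double-knockout and from 0.12 to 0.80 in VHL-restored cells. LOX stayed between -2.4 and -2.3 in double-knockout and between -3.13 and -3.04 in VHL-restored cells on the log2 scale. LOXL1-AS1 in double-knockout against parental cells passed with total-count scaling (adjusted p = 0.0361), with only the libraries of both groups (0.0494), with the replicate block (0.0463), and without VHL-restored replicate 1 (0.0471) or 2 (0.0472). With the replicate block, 10112 genes were called in double-knockout against parental cells, beside 9888 without it. Same-numbered libraries did not deviate together in every pair of groups (correlations of 0.151, -0.004 and 0.019), so the numbers were not taken as pairs. Of 1326 counts over the gene lists, 74 moved by more than 1.5 times, most in lists with few calls; the cause was not tested. Scaling shifted the median of expressed genes by at most 0.05 (log2). LOXL3, at 13 to 34 counts a library, is the member that depth limits.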

Other observations

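Amine oxidases and cross-linking enzymes outside the family were measured too. AOC2, a copper amine oxidase bound to the cell surface, averaged 2.48 ± 0.506 CPM in double-knockout, 3.95 ± 0.989 CPM in VHL-restored and 1.00 ± 0.325 CPM in parental cells, and its rise in VHL-restored cells passed (edgeR adjusted p = 1.18e-08), while that in double-knockout cells was lost without parental replicate 1 (adjusted p = 0.0648). TGM2, the tissue transglutaminase, fell in VHL-restored cells to 538.8 ± 20.9 CPM, against 950.6 ± 22.4 CPM in parental cells (edgeR adjusted p = 4.57e-14).

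LOXL2 and LOXL3 are known to act with SNAI1 in epithelial-mesenchymal transition. Of 8 genes of that process tested, 3 were higher and 3 lower in double-knockout than in parental cells, and 3 were higher and 4 lower in VHL-restored cells, where the higher count was 1 without VHL-restored replicate 1. Of all genes, 26.6% were higher and 27.5% lower in double-knockout cells, and 26.5% and 27.7% in VHL-restored cells. SNAI1 averaged 5.96 ± 0.202 CPM in double-knockout, 4.22 ± 0.104 CPM in VHL-restored and 5.63 ± 1.04 CPM in parental cells. Its difference in double-knockout cells did not pass (edgeR adjusted p = 0.745), and that in VHL-restored cells (adjusted p = 0.0111) was lost in DESeq2 (adjusted p = 0.11) and without parental replicate 1 (adjusted p = 0.343). CDH1, encoding E-cadherin, had 0 counts in double-knockout cells and 186 in parental cells, at least 65.1-fold lower against a floor of 3 counts over the group, and it rose in VHL-restored cells to 8.44 ± 0.107 CPM, against 3.55 ± 0.0309 CPM in parental cells (edgeR adjusted p = 2.56e-09). SNAI2 rose in double-knockout cells to 35.9 ± 1.64 CPM, against 9.14 ± 0.0808 CPM in parental cells (edgeR adjusted p = 9.86e-18). VIM, encoding vimentin, fell by 0.57 ± 0.05 in double-knockout cells and 1.17 ± 0.05 in VHL-restored cells on the log2 scale (edgeR adjusted p = 4.39e-12 and 1.28e-19).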
